A study of Homo sapiens with 4 samples.

Results

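The E2F transcription factors and the retinoblastoma pocket proteins were examined in PC9 cells, an established human lung adenocarcinoma line that carries an activating EGFR mutation, after knockdown of the spindle assembly factor TPX2. The members were chosen by gene symbol as E2F1 to E2F8, RB1 and RBL1, and all 10 were found among the 18134 genes of the expression table. All 10 also passed the filter on low counts, which left 14048 genes for testing. RNA-seq of polyadenylated RNA compared PC9 cells stably carrying a short hairpin RNA against TPX2 (shTPX2) with PC9 cells carrying a negative control hairpin (shNC). Both hairpins were delivered by lentivirus followed by antibiotic selection, so the controls had undergone infection and selection too. Each group held 2 libraries, numbered 1 and 2, all 4 from a single batch, and each group is a selected stable line with 1 hairpin. The labels do not say whether the libraries of a group came from separate cultures, so p-values measure only the spread between these libraries, which may be technical.

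E2F proteins bind DNA near the start sites of genes for DNA replication and cell division, most of them as a pair with a DP protein. E2F1, E2F2 and E2F3 are known as activators, E2F4 and E2F5 as repressors that work with the pocket proteins, E2F6 as a repressor within Polycomb complexes, and E2F7 and E2F8 as atypical repressors that need no DP partner. The pocket proteins RB1, RBL1 (p107) and RBL2 (p130) bind E2Fs and silence their targets until cyclin-dependent kinases of the G1 phase phosphorylate them. Several members of the family are themselves known E2F targets, E2F1 among them.

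The promoters of the members bear on that last point and are shown for the 4 members in which an E2F-type motif was found. The RefSeq promoter table (GRCh38.p14) holds 250 bases before and 50 after an annotated start, and had an entry at the gene start for 7 members. There was no entry for E2F5 and E2F8, and the entry listed for RB1 lies 172699 bases inside the gene, so it was not used. The motif TTTNNCGC, where N is any base, was searched on both strands and occurs in 6.89% of the 35116 promoters in the table. Of the 7 members, 4 held it, with 4 matches in E2F1, 3 in E2F2, 1 in E2F3 and 2 in RBL1. Below are the 150 bases directly before each start, 5′ to 3′ on the strand of the gene, with every match in capitals. They lie at chr20:33686386-33686535 on the minus strand for E2F1, chr1:23531234-23531383 on the minus strand for E2F2, chr6:20401729-20401878 on the plus strand for E2F3 and chr20:37095998-37096147 on the minus strand for RBL1.
E2F1: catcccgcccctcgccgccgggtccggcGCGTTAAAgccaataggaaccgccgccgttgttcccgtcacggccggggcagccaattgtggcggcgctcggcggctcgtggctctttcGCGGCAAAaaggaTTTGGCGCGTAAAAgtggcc
E2F2: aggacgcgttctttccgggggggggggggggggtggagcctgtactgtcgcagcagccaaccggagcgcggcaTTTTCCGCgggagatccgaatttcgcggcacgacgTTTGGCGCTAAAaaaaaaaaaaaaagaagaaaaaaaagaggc
E2F3: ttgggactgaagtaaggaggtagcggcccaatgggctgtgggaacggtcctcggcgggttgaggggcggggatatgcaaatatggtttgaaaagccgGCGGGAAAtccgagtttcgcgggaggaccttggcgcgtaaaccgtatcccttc
RBL1: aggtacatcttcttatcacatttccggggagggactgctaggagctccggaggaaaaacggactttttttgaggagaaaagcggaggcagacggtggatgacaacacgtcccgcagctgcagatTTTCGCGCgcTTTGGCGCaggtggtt

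In E2F1 the matches closest to the start, from -20 to -13 and from -14 to -7, overlap on opposite strands and form 1 run of capitals, and those of E2F2 from -42 to -35 and from -38 to -31 do the same. E2F1, E2F2 and RBL1 share the exact form TTTGGCGC, which 0.652% of all promoters hold, while E2F3 holds TTTCCCGC on the opposite strand, a form found in 1.63%. The CCAAT box, found in 34.6% of promoters, occurred in E2F1, E2F3 and E2F7. The cell cycle homology region TTTGAA, found in 15.2%, occurred in E2F3, and its other form TTTAAA (12.2%) in none of the 7. None of these motifs was found in E2F4 and E2F6. A match describes the letters of the window only.

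**Figure D1:**
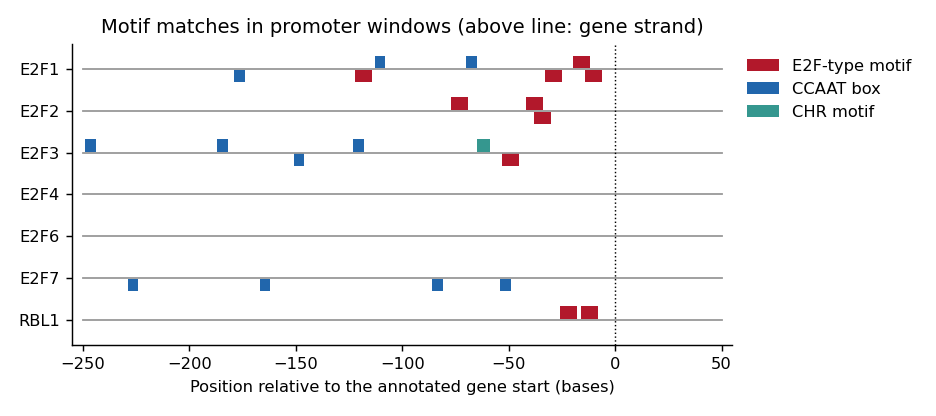
Motif matches in the promoter windows of the 7 members with an entry at the gene start, with the position in bases relative to the annotated start on the horizontal axis and 1 row per gene. Blocks above a line are matches on the strand of the gene and blocks below it on the other strand. The E2F-type matches (red) lie between -122 and -7 in E2F1, E2F2, E2F3 and RBL1, and E2F4 and E2F6 hold no match.

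The libraries were close in depth, with 20906441 to 21972583 expected counts and 16273 to 16789 genes with a count. The targeted gene TPX2 stood at 55.01 and 112 TPM (a transcript level scaled to transcript length and to a fixed total per library) in shNC and at 43.4 and 43.8 TPM with shTPX2. Its log2 fold change was -0.81 (SE 0.32, adjusted p = 0.618 by edgeR's quasi-likelihood test), and it was -0.24 without shNC 2 and -1.21 without shNC 1, so the size of the knockdown at the RNA level depended on the control library. Epithelial markers were abundant in every library, with KRT8 at 8228 to 11388 TPM and EGFR at 78.4 to 169 TPM, whereas the lung lineage genes NKX2-1, NAPSA and SFTPB were at 1.67 TPM or less. Of the 13 fibroblast, endothelial and immune markers, 9 passed the filter, their summed level was 162 and 295 TPM in the shNC libraries and 237 and 228 TPM with shTPX2, and CD68 made up most of it. CDH5 (14.4 to 30.5 TPM), CD14 (6.40 to 27.3), PECAM1 (4.20 to 14.4) and COL1A1 (5.72 to 12.0) were also detected, the other 8 stayed at 1.33 TPM or less, and DCN was at 0 in 3 libraries. By the criteria for differential expression given with E2F1, CDH5 was higher (log2 fold change 0.94) and PDGFRB lower (-1.37, at 0.13 to 0.40 TPM), and the part of these markers in the results was not tested.

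Within each library E2F4 was the most abundant member and E2F7 the least. By mean TPM, the order in shNC was E2F4, E2F8, E2F1, RB1, E2F5, E2F3, E2F6, RBL1, E2F2 and E2F7. The ranges of neighbouring members did not overlap between E2F4 and E2F8, RB1 and E2F5, E2F6 and RBL1, or E2F2 and E2F7, and the other neighbours could not be separated by the spread of their 2 libraries. In shTPX2 E2F1 moved ahead of E2F8, with overlapping ranges, and E2F5 went from the fifth place to the seventh, below E2F3 and E2F6.

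**Figure D2:**
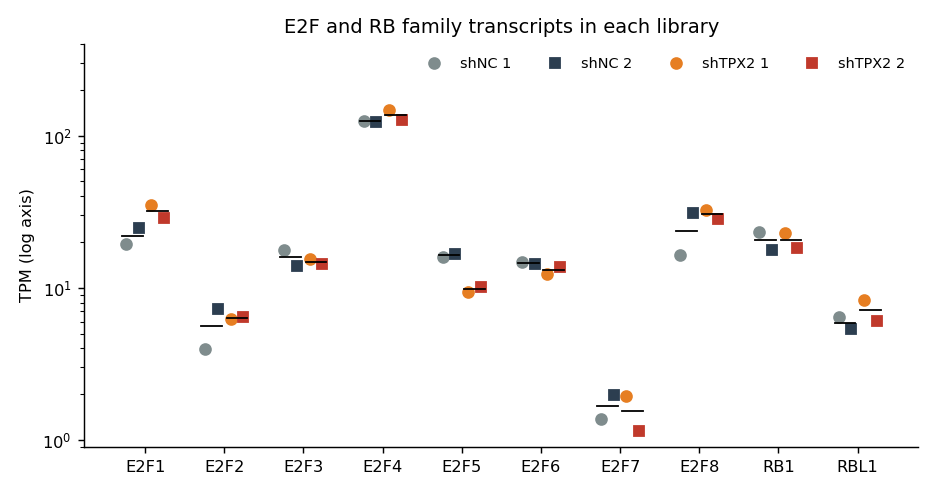
TPM of the 10 members in each of the 4 libraries on a log axis, with a bar at the mean of each group. E2F1 lies higher in both shTPX2 libraries (28.9 and 35.0 TPM) than in both shNC libraries (19.4 and 24.6 TPM), E2F5 lies lower, and E2F2 and E2F8 are low in shNC 1 alone.

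Among the activators, E2F1 was the member with the largest positive difference. E2F1 (Entrez Gene 1869, chromosome 20, 33675477 to 33686385 in GRCh38.p14) drives the entry into S phase. It measured 19.4 and 24.6 TPM in the shNC libraries and 35.0 and 28.9 TPM with shTPX2, so that every shTPX2 library lay above every shNC library. This gave a log2 fold change of 0.67 (SE 0.20, 95% confidence interval 0.17 to 1.16), a fold of 1.59. Over all 14048 genes this did not pass (adjusted p = 0.579, edgeR), and no gene of the table did. The study's methods give thresholds of 0.1 for the p and 0.3 for the log fold change of differentially expressed genes (DEGs). They were read here as an unadjusted limma voom p and an absolute log2 fold change, and E2F1 was then a DEG higher in shTPX2. When shTPX2 1 was left out its value was 0.51 and it no longer met them.

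E2F2 (chromosome 1, 23505212 to 23531233) is an activator with a role close to that of E2F1. It stood at 3.94 and 7.23 TPM in the shNC libraries and at 6.21 and 6.45 TPM with shTPX2. The shNC libraries lay on either side of both shTPX2 libraries, and the log2 fold change of 0.37 had an interval of -0.38 to 1.11. Without shNC 2 it was 0.80 and met the DEG criteria, and without shNC 1 it was 0.04. E2F3 (chromosome 6, 20401879 to 20493714), which is needed for proliferation in many cells, stood at 17.8 and 13.9 TPM in the shNC libraries and at 15.4 and 14.3 TPM with shTPX2. Its groups overlapped, and its log2 fold change was 0.02 with an interval of -0.46 to 0.51. The ratio of its mean TPM had the opposite sign, as for E2F7 and RB1, and 2 processed pseudogenes of E2F3 are annotated, which could share reads with it.

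Among the canonical repressors, E2F5 was lower in shTPX2 and E2F4 and E2F6 did not meet the DEG criteria. E2F5 (Entrez Gene 1875, chromosome 8, 85177154 to 85214518) represses E2F targets in resting cells together with RBL2 and RBL1. It measured 16.0 and 16.7 TPM in the shNC libraries and 9.45 and 10.1 TPM with shTPX2. The groups did not overlap, and the libraries of a group lay close together. On the log2 scale the difference was -0.62 (SE 0.23, interval -1.18 to -0.06), a fold of 0.65, with an adjusted p of 0.601 (edgeR), and E2F5 was a DEG lower in shTPX2. Its value stayed between -0.63 and -0.60 whichever library was left out, although without shTPX2 1 or shTPX2 2 it no longer met the DEG criteria. E2F5 shares 969 exonic bases with C8orf59 on the opposite strand, and the strand setting of the counting is not given in the sources used here, so reads of the pair could not be told apart. C8orf59 itself, named for this overlap after values were seen, measured 77.9 and 65.9 TPM in the shNC libraries and 67.8 and 71.9 TPM with shTPX2 (log2 fold change 0.07, interval -0.37 to 0.50).

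E2F4 (chromosome 16, 67192155 to 67198918), the main E2F bound by pocket proteins in resting cells, was the most abundant member at 125 and 123 TPM in the shNC libraries and 147 and 126 TPM with shTPX2. Both shTPX2 libraries lay above both shNC libraries, shTPX2 2 by a small margin. Its log2 fold change of 0.26 (SE 0.17, interval -0.16 to 0.68) met no threshold, and it was 0.13 without shTPX2 1 and 0.39 without shTPX2 2. E2F6 (chromosome 2, 11444375 to 11466161) stood at 14.9 and 14.4 TPM in the shNC libraries and at 12.4 and 13.7 TPM with shTPX2. Its TPM was lower in both shTPX2 libraries, but on the log2 CPM scale (counts scaled to library size with TMM factors) used for the test the groups overlapped. For E2F6 it was -0.05, with an interval of -0.51 to 0.40. Processed pseudogenes are annotated for E2F4 (1) and E2F6 (4), so their counts could hold reads of these copies or lose reads to them.

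The atypical repressors E2F7 and E2F8 act late in S phase and damp the genes that E2F1 activates. E2F8 (chromosome 11, 19224063 to 19241655) stood at 16.5 and 30.9 TPM in the shNC libraries and at 32.6 and 28.1 TPM with shTPX2. Only shNC 1 was low, and shNC 2 lay between the shTPX2 libraries. The log2 fold change of 0.48 had an interval of -0.24 to 1.20, and it was 0.98 without shNC 2, where it met the DEG criteria, and 0.11 without shNC 1. E2F7 (chromosome 12, 77021251 to 77065569) was scarce, with 70 to 115 expected counts per library, which is a counting error of up to 12.0%. It measured 1.37 and 1.97 TPM in the shNC libraries and 1.95 and 1.15 TPM with shTPX2. The groups overlapped, and the interval of its log2 fold change (0.05) ran from -0.88 to 0.98. On log2 CPM, shNC 2 differed from shNC 1 by 0.40 and shTPX2 2 from shTPX2 1 by -0.68.

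The pocket proteins among the members met no threshold. RB1 (Entrez Gene 5925, chromosome 13, 48303751 to 48481890), the retinoblastoma tumour suppressor, stood at 23.3 and 17.8 TPM in the shNC libraries and at 22.9 and 18.3 TPM with shTPX2. The values ran in parallel in both groups, library 1 above library 2, and the log2 fold change was 0.10 (interval -0.44 to 0.64). RBL1 (chromosome 20, 36996349 to 37095997), whose product p107 is itself made at the start of S phase, stood at 6.45 and 5.33 TPM in the shNC libraries and at 8.29 and 6.07 TPM with shTPX2. Its groups overlapped because shTPX2 2 lay below shNC 1. The log2 fold change was 0.42 (SE 0.26, interval -0.20 to 1.05), and RBL1 met the DEG criteria with the replicate number as a block, without shNC 1 (0.61) and without shTPX2 2 (0.66). It was 0.15 without shTPX2 1 and 0.26 without shNC 2, and met them in neither case. RBL1 shares 211 exonic bases with an antisense transcript, AL136172.1. RBL2, the third pocket protein and the partner of E2F4 in resting cells, is not a member but completes the set. It measured 55.1 and 76.0 TPM in the shNC libraries and 46.7 and 47.0 TPM with shTPX2, all shTPX2 values below all shNC values, with a log2 fold change of -0.37 (SE 0.20, interval -0.85 to 0.10) that met no threshold. It was -0.15 without shNC 2 and -0.56 without shNC 1.

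Counted over the family, 8 members had a positive and 2 a negative log2 fold change, with a median of 0.18 against -0.01 over all genes tested, and 6 were positive when scaled by library size only. By the ratio of mean TPM, the scale of the levels given here, 5 were positive and 5 negative, since E2F3, E2F7 and RB1 changed sign. The median was 0.07 without shTPX2 1 and 0.38 without shTPX2 2, and 6 members were positive without shTPX2 1 or without shNC 2. By edgeR, 0 members passed an adjusted p of 0.05, as did 0% of all genes, and the smallest adjusted p of a member was 0.579. At an unadjusted edgeR p under 0.05, 1 member was higher (E2F1) and 1 lower (E2F5), beside 3.13% and 4.9% of all genes. By the DEG criteria 1 was higher and 1 lower, where 6.24% and 7.99% of all genes were. DESeq2 called 0 members at an adjusted p under 0.05 and 0.79% of all genes. The groups did not overlap on log2 CPM for 2 higher members (E2F1 and E2F4) and 1 lower member (E2F5), beside 19.4% and 20.2% of all genes, so with 10 members these counts are near the background. Among the members, the difference between group means exceeded the difference within both groups for E2F1 and E2F5 alone. This measure was not computed over all genes, so it does not set these 2 members apart from the background.

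**Figure D3:**
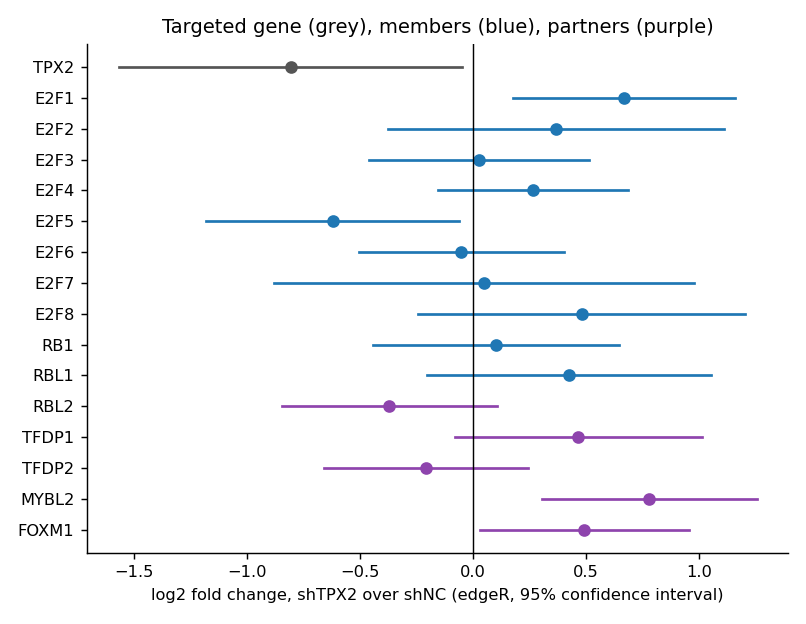
Log2 fold change of shTPX2 over shNC with its 95% confidence interval (edgeR, 2 libraries per group) for the targeted gene TPX2 (grey), the 10 members (blue) and partners of the family (purple). The intervals of TPX2, E2F1 (0.17 to 1.16), E2F5 (-1.18 to -0.06), MYBL2 and FOXM1 exclude 0 before adjustment, and those of the other members include it.

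The makeup of the E2F transcripts was also compared within each library, as the share of each E2F in the summed TPM of E2F1 to E2F8, which was 215 and 233 TPM in the shNC libraries and 260 and 229 TPM with shTPX2. E2F4 took 52.9% to 58.2% in the 4 libraries. The activators E2F1 to E2F3 together took 19.1% and 19.7% in shNC and 21.7% and 21.7% in shTPX2, or 19.4% ± 0.373 against 21.7% ± 0.053 (SD, n = 2). The groups did not overlap, and the exact permutation test (two-sided) gave p = 0.333, the smallest value that 2 libraries against 2 allow. The share of E2F1 went from 9.01% and 10.6% to 13.4% and 12.6%, while that of E2F5 went from 7.44% and 7.17% to 3.63% and 4.39%. E2F2 took 1.83% and 3.11% in shNC and 2.39% and 2.82% in shTPX2, and E2F3 8.28% and 5.97% against 5.90% and 6.23%. Of the activators, only E2F1 thus had shares that did not overlap between the groups. The ratio of E2F1 to E2F5 TPM, a quantity chosen after the values were seen, was 1.21 and 1.47 in shNC and 3.70 and 2.87 in shTPX2. Of the summed TPM of the pocket proteins, RBL2 took 60.0% to 76.6%, RB1 18.0% to 29.4% and RBL1 5.37% to 10.6%.

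**Figure D4:**
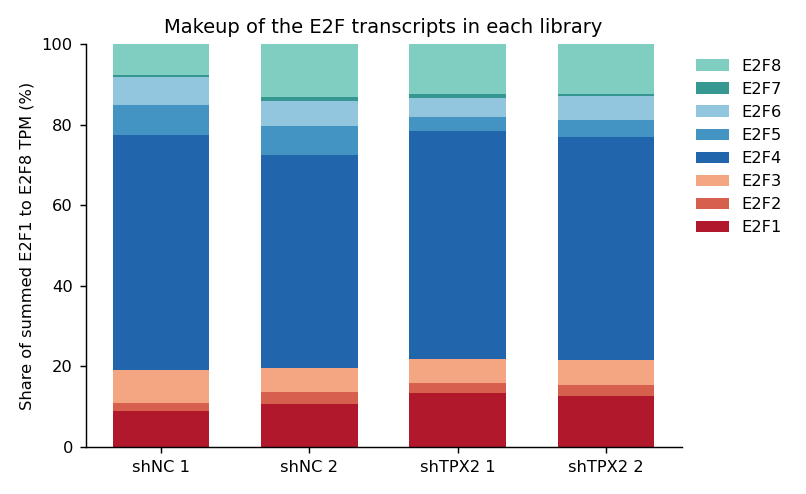
Share of each E2F in the summed TPM of E2F1 to E2F8, in percent, with 1 stacked bar per library. E2F4 fills more than 52% of every bar, E2F1 widens from 9.01% and 10.6% in shNC to 13.4% and 12.6% in shTPX2, and E2F5 narrows.

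The partners of the family came from lists written with earlier results of these data known, and a list is described by counts and its median. TFDP1, the DP protein that pairs with most E2Fs, measured 147 and 122 TPM in the shNC libraries and 196 and 144 TPM with shTPX2. In TPM shTPX2 2 lay between the shNC libraries, but on the log2 CPM scale used for the test the groups did not overlap. Its log2 fold change was 0.46 (SE 0.23), which met the DEG criteria. It was 0.21 without shTPX2 1 and 0.31 without shNC 2, and TFDP1 met the criteria in neither case. TFDP2 had a log2 fold change of -0.21 (interval -0.66 to 0.24), and TFDP3 was not found in the table. The MuvB core (LIN9, LIN37, LIN52, LIN54, RBBP4) works with E2F4 and a pocket protein as the DREAM repressor, and later with MYBL2 and FOXM1 as an activator. With all 4 libraries and TMM factors, all 7 of these genes had a positive log2 fold change, with a median of 0.22. The sign turned for LIN37 when scaled by library size only, and for LIN37, LIN52 and LIN54 when a library was left out. Of the 7, 2 were higher by the DEG criteria, as were 6.24% of all genes. MYBL2, a known E2F target, measured 127 and 137 TPM in the shNC libraries and 232 and 183 TPM with shTPX2 (log2 fold change 0.78, SE 0.20, adjusted p = 0.579 by edgeR). FOXM1, which activates genes of mitosis, measured 52.9 and 69.6 TPM in the shNC libraries and 81.4 and 76.1 TPM with shTPX2 (0.49, SE 0.19). Both were higher in each shTPX2 library than in each shNC library. FOXM1 was no longer a DEG without shNC 1 or without shTPX2 1. The core subunits lay between 0.04 (LIN37) and 0.25 (RBBP4), and none of them met the criteria.

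Upstream of the pocket proteins, 8 of the 9 listed G1 cyclins, kinases and their phosphatase were tested. Of these, 6 had a positive log2 fold change, the median was 0.30 and 3 were higher by the DEG criteria, as were 6.24% of all genes. CDC25A, the phosphatase that activates CDK2, measured 4.02 and 5.31 TPM in the shNC libraries and 7.97 and 6.60 TPM with shTPX2 (log2 fold change 0.78), and CCNE2, a cyclin E, 9.72 and 7.51 against 14.7 and 11.9 TPM (0.74). Neither was a DEG without shTPX2 1, nor CCNE2 without shNC 2. Both are E2F targets themselves and also stand in the G1/S list below. CDK6 (-0.26) and CDK2 (-0.08) had negative values with groups that overlapped. Of the 7 CDK inhibitors, 6 had a negative log2 fold change, and the median was -0.29. By the DEG criteria 7.99% of all genes were lower, and of these inhibitors 1 (14.3%). That was CDKN1C (p57), at 4.61 and 7.76 TPM in the shNC libraries and 2.26 and 1.90 TPM with shTPX2, with a log2 fold change of -1.35 (SE 0.42). CDKN1B (p27) measured 74.3 and 95.2 TPM in the shNC libraries and 57.1 and 70.0 TPM with shTPX2 (-0.29, interval -0.75 to 0.17), lower in both shTPX2 libraries but not called. CDKN2A, the locus of the RB-pathway inhibitor p16, was abundant at 519 to 706 TPM, with overlapping groups (0.18).

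Chromatin cofactors of the family showed no common direction. Of 12 corepressors that pocket proteins recruit, 7 had a positive and 5 a negative log2 fold change (median 0.04). Beside 6.24% of all genes, 1 (8.33%) was higher by the DEG criteria. This was DNMT1, the maintenance DNA methyltransferase, at 56.0 and 58.4 TPM in the shNC libraries and 73.1 and 67.1 TPM with shTPX2 (0.42, SE 0.17), which is also listed as a G1/S target and was not a DEG without shTPX2 1. HDAC1 had a value of 0.20, ARID4B of -0.23 and KDM5A of -0.20, and none of them was called. Of 11 members of the Polycomb complex that holds E2F6, 5 had a positive and 6 a negative value. By the DEG criteria 6.24% of all genes were higher and 7.99% lower. Here 2 were higher, TFDP1 and WDR5 (0.38), and 1 lower. The lower one was RNF2, a ubiquitin ligase of histone H2A, at 13.5 and 12.6 TPM in the shNC libraries and 8.20 and 7.26 TPM with shTPX2 (-0.60, SE 0.23). RNF2 was not a DEG without either shTPX2 library, nor WDR5 without shNC 2 or either shTPX2 library. YAF2 (-0.28) was not called.

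The G1/S targets of E2F, which encode the replication machinery and the enzymes of nucleotide synthesis, leaned towards higher levels in shTPX2, by their counts and median. Of 42 such genes, 41 had a positive log2 fold change, and the median was 0.64 against -0.01 over all genes. By the DEG criteria 30 (71.4%) were higher and 0 lower, beside 6.24% and 7.99% of all genes. The groups did not overlap for 35 of the 42, all higher (83.3%), beside 19.4% of all genes. By edgeR 0 of the 42 passed an adjusted p of 0.05, with 24 at an unadjusted p under 0.05, whereas DESeq2 called 5, namely MCM2, MCM5, MCM7, PCNA and UHRF1. MCM5, part of the helicase that opens replication origins, stood at 31.5 and 35.5 TPM in the shNC libraries and 63.7 and 61.8 TPM with shTPX2 (log2 fold change 1.03, SE 0.16, adjusted p = 0.392 by edgeR and 7.3e-04 by DESeq2). MCM2, of the same complex, measured 52.8 and 55.9 TPM in the shNC libraries and 96.1 and 83.5 TPM with shTPX2 (0.85, SE 0.17). The exception was the mismatch repair gene MSH6 at -0.01. When a library was left out, the median of the 42 genes ran from 0.47 (without shTPX2 1) to 0.81 (without shTPX2 2).

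The late G2/M genes, which respond to MuvB with MYBL2 and FOXM1, differed between the control libraries more than between the groups. Of 31 genes, 15 had a positive and 16 a negative log2 fold change, with a median of -0.03. Beside 6.24% of all genes, 1 of the 31 was higher by the DEG criteria. This was BIRC5 (survivin), at 21.4 and 41.1 TPM in the shNC libraries and 44.1 and 44.4 TPM with shTPX2 (0.64, SE 0.29). Without shNC 1 its value was 0.28, under the threshold of 0.3. The summed level of the 31 genes was 1197 and 2535 TPM in the shNC libraries and 1775 and 1726 TPM with shTPX2. Without shNC 1 the median was -0.44 with 1 of 31 positive. Without shNC 2 it was 0.67, with 31 of 31 positive. CDC20 (0.31), NEK2 (-0.36) and ASPM (-0.23) all stood lowest in shNC 1 and highest in shNC 2. TPX2 itself, E2F1, E2F2, E2F7 and E2F8 were likewise lower in shNC 1 than in shNC 2, and the part of this split in the values of these E2Fs was not tested. The G1/S genes, also lower in shNC 1, summed to 1379 and 1690 TPM in the shNC libraries and 2371 and 1993 TPM with shTPX2, with both shTPX2 libraries above both shNC libraries.

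**Figure D5:**
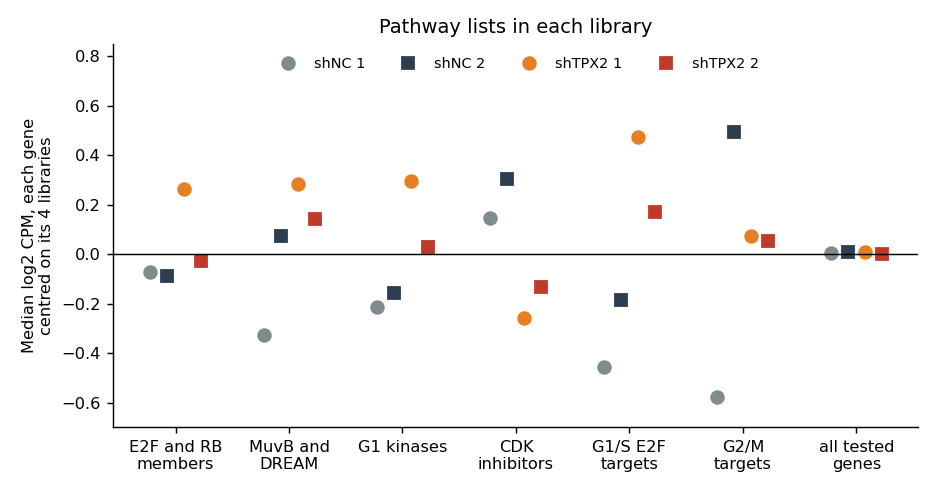
Median log2 CPM of each gene list in each library, with every gene centred on its mean over the 4 libraries, for 6 lists and for all tested genes. The G1/S targets lie at -0.45 and -0.18 in shNC and at 0.47 and 0.17 in shTPX2, whereas the G2/M targets lie at -0.58 in shNC 1 and 0.49 in shNC 2 with both shTPX2 libraries between them.

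The proapoptotic targets of E2F1 had no common direction, with 5 positive and 5 negative of 10 and a median of 0.00. BID, a BH3-only protein, met the DEG criteria at 56.1 and 54.3 TPM in the shNC libraries and 77.3 and 63.4 TPM with shTPX2 (0.48, SE 0.18), but not without shTPX2 1 (0.32). TP73 (0.57, and 0.08 without shTPX2 1) and APAF1 (-0.22) had groups that overlapped. TP53INP1 (-0.44) was low in shTPX2 1 alone, at 2.33 TPM against 6.86 to 7.87 TPM in the other libraries.

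The promoters of the target lists were searched with the same motifs. Of the G1/S targets with an entry, 22 of 36 (61.1%) held TTTNNCGC at some start, beside 3 of 27 (11.1%) of the G2/M targets and 8.23% of the 27305 genes in the table. For TTTGAA the G2/M targets stood highest, with 18 of 27 (66.7%), beside 3 of 36 (8.33%) of the G1/S targets and 18.2% of the genes in the table.

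The tested genes most like E2F1 across the 4 libraries, by the root mean square difference of log2 CPM after centring each gene, were PCLAF, CHAF1A and TIPIN. PCLAF, which binds the replication clamp PCNA, differed from E2F1 by 0.0225 and measured 25.1 and 33.2 TPM in the shNC libraries and 45.8 and 39.1 TPM with shTPX2. CHAF1A, a histone chaperone subunit, differed by 0.0247 and TIPIN, of the replication fork, by 0.0311. Those most like RB1 were TFRC (0.0159), HDHD5 (0.0159) and MBNL1 (0.0242), which shared its higher level in library 1 of each group, TFRC at 212 and 156 TPM in the shNC libraries and 200 and 165 TPM with shTPX2. With 4 libraries many genes follow any one pattern, and these are the nearest of 14048.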

How the data were processed

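RNA from 2 shNC and 2 shTPX2 PC9 libraries was analysed, grouped by sample title. According to the study's methods the authors used SOAPnuke for cleaning, HISAT2/Bowtie2 for alignment and RSEM or StringTie for quantification. The submitters' processing notes name HISAT2, featureCounts, DESeq2 and GRCh38. Annotation and strand setting are not given in the sources used here. Expected counts were deposited by the authors for every gene in each library, not normalized for depth and not whole in 42.2% to 44.6% of genes. The authors also deposited TPM, scaled to 1000000 per library, used here for levels, and FPKM, which was not used. The 6 columns of averages that the authors deposited differed by over 1% from the mean of the 2 libraries in 86.5% to 94.8% of genes and were not used. No sample column was left unmapped.

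Expected counts were rounded and tested in R 4.3.3 with edgeR 4.0.16 (quasi-likelihood test, TMM factors, filterByExpr, Benjamini-Hochberg adjustment over all 14048 genes tested). The DEG criteria were applied with limma 3.58.1 after voom. DESeq2 1.42.0 was an alternative, beside other size factors, other filters, quantile normalization, edgeR p-values, adjusted p-values, a replicate block and leaving out each library. Fits without a library assume that the lone library varies like the others. Log2 CPM used a prior count of 2. The common dispersion was 0.0485, so spread between libraries, not depth, limits most members. Libraries of a group differed beyond counting noise (chi-square per gene 72 and 43.7). The scripts were tested on simulated data with planted changes larger than those of any member. This does not measure recovery at the sizes seen here.

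Members and gene lists were chosen with earlier results of these data known. Named genes were TPX2, the members, DP partners, RBL2, the MuvB and DREAM genes, the 2 positive and 2 negative genes with the smallest edgeR p of each other list, and the 3 genes most like E2F1 and RB1. MCM7, PCNA, UHRF1 and C8orf59 fall outside it and were named after values were seen.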

Additional observations from a re-analysis of the deposited data

How the results depend on the processing

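The 2 libraries per group limit every statement more than depth does, and the sign of values near 0 could not be fixed. With library sizes only, the median of all genes moved from -0.01 to -0.08, and E2F3 was -0.041, E2F7 -0.031 and LIN37 -0.031. Without a filter MSH6 was 0.0065. Leaving out 1 library in turn turned the sign of these log2 fold changes. The members ranged from -0.17 to 0.25 (E2F3), -0.10 to 0.0040 (E2F6), -0.33 to 0.36 (E2F7) and -0.11 to 0.35 (RB1). The partners and regulators ranged from -0.13 to 0.21 (LIN37), -0.050 to 0.53 (LIN52), -0.0022 to 0.24 (LIN54), -0.72 to 0.10 (CDK6), -0.36 to 0.28 (CDK2) and -0.053 to 0.45 (CDKN2A). The targets ranged from -0.16 to 0.16 (MSH6), -0.056 to 0.81 (CDC20), -0.96 to 0.72 (NEK2), -0.65 to 0.38 (ASPM), -0.44 to 0.038 (APAF1) and -1.51 to 0.17 (TP53INP1). TFRC ranged from -0.13 to 0.37, HDHD5 from -0.11 to 0.33 and MBNL1 from -0.11 to 0.41.

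E2F1 kept a positive value (0.51 to 0.82) and E2F5 a negative one (-0.63 to -0.60) without any 1 library. Leaving out a library, members higher by the DEG criteria numbered 0 to 3, members lower 0 to 1, members whose groups did not overlap 4 to 9, G1/S targets higher 17 to 32 and G2/M targets higher 0 to 27. The share of all genes called also moved between these fits, so the member counts alone do not set the members apart from the background. With 1 library against 2, groups fail to overlap more easily, and non-overlap was not counted over all genes there. The 4 to 9 members therefore cannot be compared with the count from all libraries. At an adjusted p of at most 0.1 in the DEG criteria, 0 members were higher, 0 members lower, 0 G1/S targets and 0 G2/M targets higher. The activator share differed by 2.31 percentage points in TPM, by 1.65 in CPM, and by 2.05 to 2.58 without 1 library. With the replicate block 2 members were higher, RBL1 joining E2F1, and the other counts of calls stayed within 1.5 times the main count. The block also raised the share of all genes called, from 6.24% to 7.72% higher and from 7.99% to 9.7% lower. The G2/M median of -0.03 was 0.11 with the block and -0.12 with library sizes only. The labels do not say that the numbers pair the libraries, and same-numbered libraries deviated together only weakly across genes (correlation 0.182), so the block may reflect a shared number only. By DESeq2, MCM5 (1.03) and MCM2 (0.85) passed an adjusted p of 0.05. The causes of these changes were not tested.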
